A study of Mus musculus with 24 samples.

Results

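The enzymes described here carry out the oxidation of fatty acids in mitochondria and peroxisomes, and 32 genes were chosen for it by name. The choice was made with earlier results of these data known, so their counts beside all genes are a description. A gene was represented by 1 probe set of the array, the one with the highest mean over 24 liver arrays. Of the 32 genes 31 were measured among the 12393 genes with a probe set of their own, and all 31 were among the 9167 genes bright enough to test. They were 18 mitochondrial genes, 10 peroxisomal genes, and Ech1, Eci2 and Crat, whose proteins are known in both organelles. Acsl1, which activates long chains to acyl-CoA, was not analysed here because no probe set was assigned to it alone.

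Livers came from female mice of a mixed C57BL/6x129Sv background on normal chow, with 1 mouse per array and 2 mice in each of 12 groups. Wild-type mice carried the mouse constitutive androstane receptor (CAR), the nuclear receptor encoded by Nr1i3. Knockout mice (CAR.KO) lacked it. Human CAR mice (CAR.AH) also lacked mouse CAR and carried a human CAR transgene under the mouse albumin promoter, which is active in hepatocytes. Each genotype received intraperitoneal injections on 3 days: corn oil, a daily 100 mg/kg of phenobarbital (phenobarbitol in the labels), a daily 30 mg/kg of CITCO, or 3 mg/kg of TCPOBOP once, followed by corn oil. Livers were harvested 6 h after the last injection. The labels describe TCPOBOP as a mouse CAR ligand, CITCO as specific for human CAR, and phenobarbital as sending both receptors to the nucleus. Ages are not given in the labels. The questions addressed were which of these genes a CAR ligand moved, and in which genotype.

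As background, mitochondria take up long-chain fatty acids as carnitine esters and shorten them in a cycle of dehydrogenation, hydration, a further dehydrogenation and thiolysis, and the liver turns much of the acetyl-CoA formed into ketone bodies. Peroxisomes shorten very long and branched chains and pass the products on to mitochondria. Many of these genes are known targets of PPARα, a nuclear receptor active in fasting, whereas CAR is best known for inducing drug-metabolising enzymes.

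Promoter sequences were taken from RefSeq (GRCm38.p6), each running from 250 bases before to 50 bases after the annotated start of transcription, 5′ to 3′ on the gene's own strand. They were found for 27 of the 32 genes, as 30 windows. Hadha and Hadhb, which encode the 2 subunits of the mitochondrial trifunctional protein, lie head to head on chromosome 5 with their starts 273 bases apart, and both fell with TCPOBOP (values below). Their windows, chr5:30154931-30155230 on the minus strand and chr5:30155003-30155302 on the plus strand, are printed because 228 bases belong to both. Capitals mark this common stretch, which reads as the reverse complement from one line to the other.
Hadha: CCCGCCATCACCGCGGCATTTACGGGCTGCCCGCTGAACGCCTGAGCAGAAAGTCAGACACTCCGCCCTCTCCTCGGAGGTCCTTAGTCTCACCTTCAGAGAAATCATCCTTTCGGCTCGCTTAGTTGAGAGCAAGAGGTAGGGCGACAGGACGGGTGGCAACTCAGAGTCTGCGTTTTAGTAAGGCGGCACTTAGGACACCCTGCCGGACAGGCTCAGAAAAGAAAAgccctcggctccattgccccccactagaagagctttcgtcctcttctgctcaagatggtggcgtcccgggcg
Hadhb: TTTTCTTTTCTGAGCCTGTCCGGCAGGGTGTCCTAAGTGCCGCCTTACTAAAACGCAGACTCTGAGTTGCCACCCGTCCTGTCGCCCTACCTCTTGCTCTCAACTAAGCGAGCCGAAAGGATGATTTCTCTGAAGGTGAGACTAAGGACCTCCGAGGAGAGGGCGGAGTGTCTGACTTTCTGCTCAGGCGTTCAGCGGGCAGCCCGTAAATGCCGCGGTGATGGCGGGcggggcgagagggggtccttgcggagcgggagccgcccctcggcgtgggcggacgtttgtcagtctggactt

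The windows were also searched on both strands for a pair of AGGTCA half-sites in direct repeat, the kind of site that nuclear receptors bound to RXR recognise. The DR1 pattern AGGTCANAGGTCA (PPARα is known to bind such repeats) was allowed 2 mismatches in its 12 half-site letters, and occurred in 2 of the 30 windows (6.67%), against 3.86% of 32851 promoters of the same length. The DR4 pattern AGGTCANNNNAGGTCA, a repeat known for CAR, was allowed the same mismatches and occurred in 1 of 30 windows (3.33%), against 3.02% of promoters. The 3 windows with a match are shown with the matched letters in capitals: Slc25a20 (chr9:108661886-108662185, plus strand, DR1 after the start), Etfa (chr9:55512194-55512493, minus strand, DR1 on the opposite strand of the window) and Acadvl (chr11:70015379-70015678, minus strand, DR4). A match is a description of letters, and no binding was measured.
Slc25a20: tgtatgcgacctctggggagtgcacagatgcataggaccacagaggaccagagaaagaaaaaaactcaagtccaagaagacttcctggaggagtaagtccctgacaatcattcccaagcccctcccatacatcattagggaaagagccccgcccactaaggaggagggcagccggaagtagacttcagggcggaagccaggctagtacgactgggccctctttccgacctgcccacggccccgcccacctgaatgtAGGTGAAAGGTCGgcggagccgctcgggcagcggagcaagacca
Etfa: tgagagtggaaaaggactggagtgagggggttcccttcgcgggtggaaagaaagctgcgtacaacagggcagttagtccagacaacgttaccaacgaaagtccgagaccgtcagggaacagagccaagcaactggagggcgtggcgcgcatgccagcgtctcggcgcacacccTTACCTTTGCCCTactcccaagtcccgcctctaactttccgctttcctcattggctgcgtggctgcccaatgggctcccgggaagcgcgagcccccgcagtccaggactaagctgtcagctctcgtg
Acadvl: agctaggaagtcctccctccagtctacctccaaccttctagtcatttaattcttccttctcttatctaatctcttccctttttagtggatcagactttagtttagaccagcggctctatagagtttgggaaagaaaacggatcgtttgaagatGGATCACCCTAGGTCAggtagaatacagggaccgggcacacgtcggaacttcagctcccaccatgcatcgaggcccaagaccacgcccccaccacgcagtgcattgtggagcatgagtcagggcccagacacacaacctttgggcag

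All values below are log2 expression. Changes are log2 differences of group means from a limma fit to the 24 arrays, with the standard error (SE) of that fit. A gene was called changed when its adjusted p (limma, Benjamini-Hochberg over 9167 genes) was under 0.05. With 2 mice per group the precision is limited. 11 measured hepatocyte markers, among them Alb, Ttr and Apoa1, were bright on every array, with a summed linear signal of 59730 to 74890, as for liver. Nr1i3, the deleted gene, was at 6.84 to 8.0 in wild-type mice and at 5.03 to 5.60 in both other genotypes. Cyp2b10, the classical CAR target, lay at 4.66 and 5.22 on wild-type corn oil arrays and at 12.24 and 12.48 after TCPOBOP, at 4.75 and 4.90 in knockout mice on TCPOBOP, and at 11.37 and 11.68 in human CAR mice on CITCO against 8.22 and 8.82 on corn oil. CITCO also raised it in wild-type mice, to 7.36 and 8.98 (change 3.23, limma adjusted p = 0.00226, against 3.01 in human CAR mice). The knockout phenobarbital array of mouse 2 and the human CAR phenobarbital array of mouse 1 had the lowest median correlations with the other arrays (0.980 and 0.970, against 0.981 to 0.991), so results that rest on them are also given without them. The next lowest were the wild-type TCPOBOP arrays, at 0.9825 for mouse 1 and 0.9811 for mouse 2, and leaving out each of these in turn is given below. In whole liver, fewer cells of a type and less RNA per cell cannot be told apart.

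In wild-type mice TCPOBOP lowered most of the pathway. Of 31 genes 21 fell and 0 rose, where 2.8% of all genes tested fell (257) and 3.34% rose (306). Changes were negative for 30 of 31, with a median of -0.66 against 0.01 for all genes tested. Both TCPOBOP arrays lay below both corn oil arrays for 29 of the 31 genes, as they did for 27% of all genes. For 19 genes these were the 2 lowest arrays of all 24, a count that was not made over all genes. At an unadjusted p under 0.05, 25 genes were lower and 0 higher, where 20.1% of all genes passed in either direction.

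**Figure D1:**
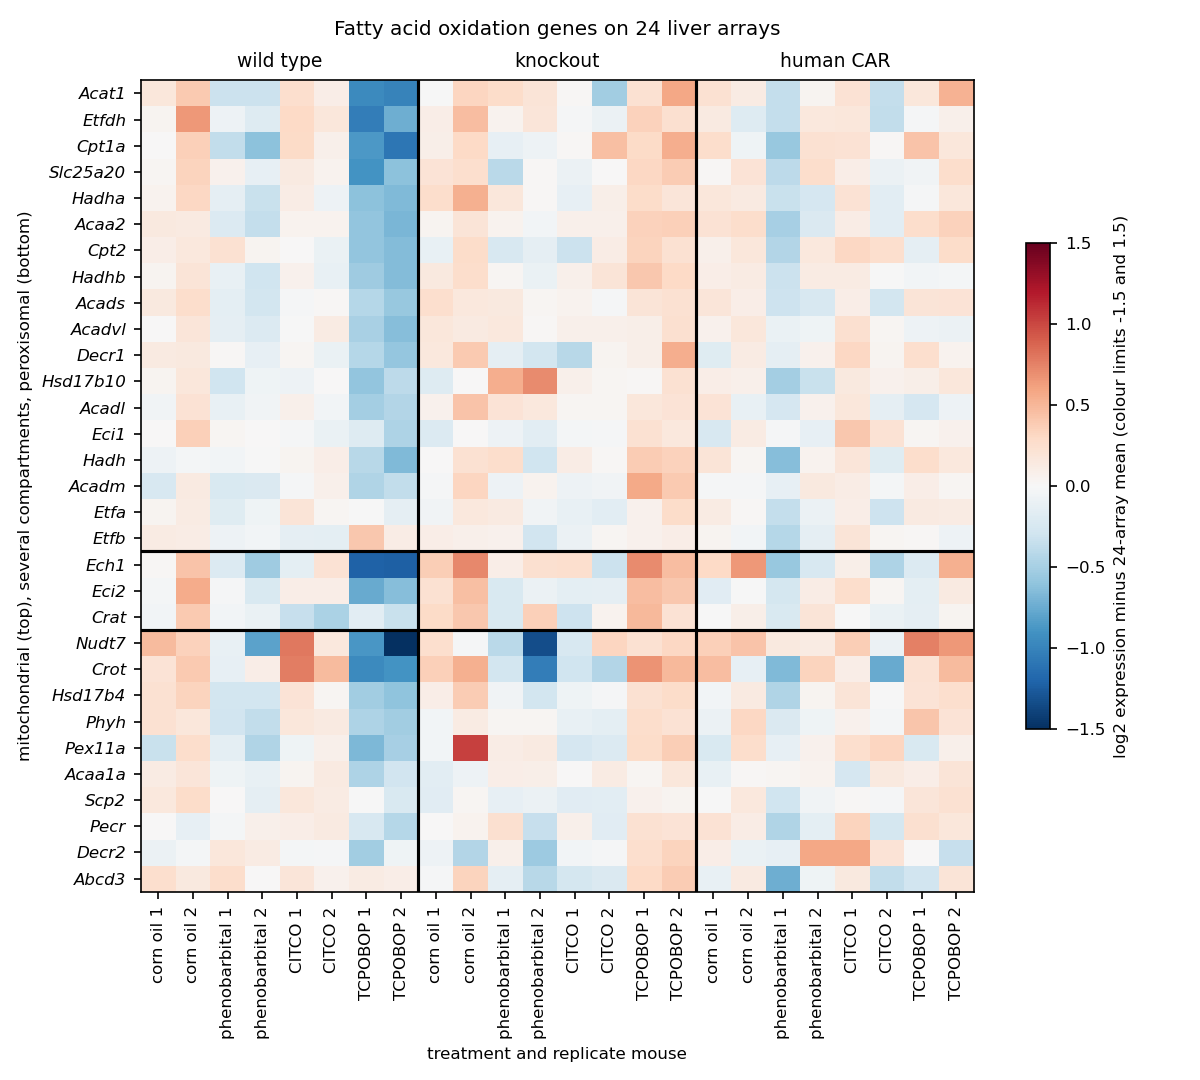
Heat map of 31 genes (rows) on 24 arrays (columns, by genotype, treatment and mouse), coloured by log2 expression minus the gene's mean over the 24 arrays. The 2 wild-type TCPOBOP columns are blue in nearly all rows, with Etfb as an exception, and the knockout and human CAR TCPOBOP columns are not.

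Entry and transport steps move acyl groups into and out of the organelles, and 4 of their 6 genes fell. Cpt1a, the liver carnitine palmitoyltransferase of the outer mitochondrial membrane and the regulated step of the pathway, was at 10.01 and 10.37 on corn oil and at 9.14 and 8.92 after TCPOBOP. The groups did not overlap, and the change was -1.16 (SE 0.22, limma adjusted p = 0.00394), or 2.23-fold lower. Slc25a20, the carrier that exchanges acylcarnitine for carnitine across the inner membrane, was at 8.75 and 9.05 on corn oil and at 7.83 and 8.10 after TCPOBOP, a change of -0.94 (SE 0.19, adjusted p = 0.00655). Its TCPOBOP arrays were the lowest of all 24. Cpt2, which re-forms acyl-CoA inside the matrix, went from 8.71 and 8.78 to 8.02 and 7.96 (change -0.75, SE 0.18, adjusted p = 0.0214). Crot, the peroxisomal carnitine octanoyltransferase that exports shortened chains, went from 9.74 and 9.92 to 8.57 and 8.63 (change -1.23, SE 0.31, adjusted p = 0.0255). Thus 3 mitochondrial steps of the carnitine route were each lower in both TCPOBOP mice. Crat, the carnitine acetyltransferase, and Abcd3, a peroxisomal membrane transporter of acyl-CoA, changed by -0.42 (adjusted p = 0.236) and -0.09 (adjusted p = 0.861) and did not pass. The intervals (95%) of these changes were -0.83 to -0.01 for Crat and -0.54 to 0.36 for Abcd3.

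The acyl-CoA dehydrogenases start each turn of the mitochondrial cycle, and each handles another chain length. Acadvl, for very long chains, was at 9.82 and 10.00 on corn oil and at 9.33 and 9.18 after TCPOBOP, and Acadl, for long chains, went from 8.56 and 8.83 to 8.10 and 8.16. Acads, for short chains, went from 8.62 and 8.73 to 8.04 and 7.90. None of these pairs overlapped, and the changes were -0.66 for Acadvl (SE 0.10, limma adjusted p = 0.000694), -0.56 for Acadl (SE 0.15, adjusted p = 0.0353) and -0.70 for Acads (SE 0.11, adjusted p = 0.000714). Acadm, the medium-chain enzyme, was at 9.77 and 10.14 on corn oil and at 9.55 and 9.64 after TCPOBOP. Both of its TCPOBOP arrays were the lower ones, but its change of -0.36 (SE 0.13, adjusted p = 0.136) did not pass.

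Electrons from these enzymes pass to the electron transfer flavoprotein and from it to the quinone pool. Etfdh, the membrane oxidoreductase at the end of this route, fell from 8.24 and 8.86 to 7.16 and 7.48 (change -1.23, SE 0.22, limma adjusted p = 0.00198), 2.35-fold. Genes of the flavoprotein itself did not pass: Etfa, its alpha subunit, changed by -0.16 (95% interval -0.45 to 0.13), and Etfb, its beta subunit, by 0.15 (95% interval -0.12 to 0.41). Etfb was the only 1 of the 31 genes with a positive change, at 11.16 and 11.15 on corn oil and 11.45 and 11.16 after TCPOBOP, and the higher value came from 1 mouse.

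Later steps of the mitochondrial cycle held 5 falling genes of 6. Hadha, the subunit with the hydratase and hydroxyacyl-CoA dehydrogenase, was at 9.03 and 9.29 on corn oil and at 8.37 and 8.32 after TCPOBOP. Hadhb, the thiolase subunit, was at 9.77 and 9.92 and then at 9.19 and 9.08. The 2 genes, whose promoter windows share the stretch printed above, changed by -0.81 (SE 0.14, limma adjusted p = 0.00174) and -0.71 (SE 0.13, adjusted p = 0.00271). Acaa2, the mitochondrial thiolase for medium chains, went from 11.02 and 11.01 to 10.28 and 10.18, a change of -0.78 (SE 0.11, adjusted p = 0.000235) and the smallest adjusted p of the pathway. Acat1, the acetoacetyl-CoA thiolase that also serves ketone body formation, went from 9.64 and 9.85 to 8.51 and 8.46, the largest mitochondrial change at -1.26 (SE 0.21, adjusted p = 0.00111), or 2.40-fold. For both thiolases the TCPOBOP mice lay below every other mouse. Hsd17b10, a hydroxyacyl-CoA dehydrogenase that is also part of the mitochondrial RNase P, went from 9.10 and 9.22 to 8.47 and 8.67 (change -0.59, SE 0.12, adjusted p = 0.00516). Hadh, the dehydrogenase for shorter chains, was lower in both mice, at 10.75 and 10.51 against 11.09 and 11.13, with a change of -0.49 (SE 0.20) that did not pass (adjusted p = 0.168).

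Unsaturated chains need isomerases and reductases besides the cycle. Of 6 isomerase and reductase genes grouped together here, 4 fell. Ech1, a dienoyl-CoA isomerase of both organelles, had the second largest change of the 31 genes: it was at 9.28 and 9.70 on corn oil and at 8.06 and 8.05 after TCPOBOP (change -1.44, SE 0.26, limma adjusted p = 0.00249), 2.71-fold. The enoyl-CoA isomerase Eci2 went from 9.05 and 9.64 to 8.32 and 8.44 (change -0.96, SE 0.17, adjusted p = 0.00208), and its mitochondrial counterpart Eci1 from 8.70 and 9.05 to 8.50 and 8.23 (change -0.51, SE 0.14, adjusted p = 0.0328). Decr1, the mitochondrial dienoyl-CoA reductase, went from 9.10 and 9.11 to 8.54 and 8.38 (change -0.65, SE 0.17, adjusted p = 0.0333). In each of these 4 genes the TCPOBOP and corn oil mice were apart. The peroxisomal reductases Decr2 and Pecr changed by -0.24 (95% interval -0.72 to 0.25) and -0.28 (95% interval -0.67 to 0.12) and did not pass.

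Among 6 genes of peroxisomal chain shortening, branched chains and the organelle itself, 4 fell. Nudt7, which hydrolyses coenzyme A and its esters in peroxisomes, had the largest change of all. It was at 10.80 and 10.68 on corn oil and at 9.46 and 8.51 after TCPOBOP, a change of -1.75 (SE 0.33, limma adjusted p = 0.00319) or 3.37-fold. Its 2 TCPOBOP mice differed more from each other than those of any other called gene, and the knockout phenobarbital array of mouse 2 (9.0) lay between them. Hsd17b4, the bifunctional enzyme of branched and very long chains, went from 10.15 and 10.24 to 9.39 and 9.30 (change -0.85, SE 0.14, adjusted p = 0.0013). Phyh, which starts the alpha-oxidation of phytanic acid, went from 11.42 and 11.37 to 10.73 and 10.67 (change -0.69, SE 0.12, adjusted p = 0.00139). Acaa1a, a peroxisomal thiolase, went from 8.63 and 8.69 to 8.05 and 8.22 (change -0.53, SE 0.12, adjusted p = 0.0109). All 3 were lower in both TCPOBOP mice than on any other array. Scp2, whose long form is the thiolase of branched chains, was the brightest of the 31 genes and changed by -0.33 (SE 0.11, adjusted p = 0.0897), and Pex11a, a membrane protein of dividing peroxisomes, by -0.54 (SE 0.26, adjusted p = 0.252), and neither passed.

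Mitochondrial and peroxisomal genes were then set side by side, without a test. In wild-type mice on TCPOBOP 14 of 18 mitochondrial genes fell, with a median of -0.68 and a range of -1.26 to 0.15, and 5 of 10 peroxisomal genes, with a median of -0.54 and a range of -1.75 to -0.09. The medians differed by -0.15, less than the SD of this difference between the 2 TCPOBOP mice (0.19). On the scale of the mean deviation of a class from its 24-array mean, the mitochondrial genes stood at 0.04 and 0.23 on wild-type corn oil arrays and at -0.51 and -0.57 after TCPOBOP. The peroxisomal genes stood at 0.12 and 0.20 and then at -0.46 and -0.53. On these 4 arrays the 2 classes lay close together. They parted most on the knockout phenobarbital array of mouse 2, where the mitochondrial class was at -0.0029 and the peroxisomal class at -0.38, and this is one of the 2 arrays with low correlations.

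**Figure D2:**
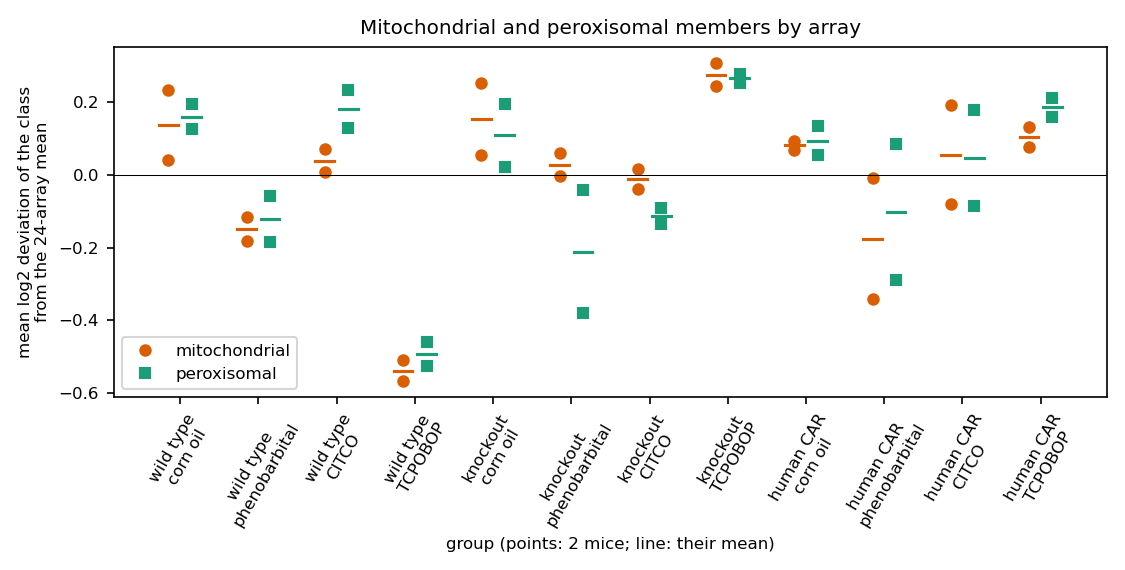
Mean log2 deviation of 18 mitochondrial genes (circles) and 10 peroxisomal genes (squares) from each gene's mean over the 24 arrays, with 1 point per mouse and a line at the mean of 2 mice, for 12 groups. Wild-type TCPOBOP mice stand lowest, at -0.46 to -0.57, and the 2 classes lie close together there.

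Several calls were lost with 1 array left out, a fit that has 1 mouse in a group. Counts under these fits are given without their share of all genes. 11 of the 21 calls held whichever of the 4 arrays was left out: Acaa2, Acads, Acadvl, Acat1, Ech1, Eci2, Etfdh, Hadha, Hadhb, Hsd17b4 and Phyh. Without wild-type corn oil mouse 2 the count was 12 of 31, and without corn oil mouse 1 or either TCPOBOP mouse it was 18, 14 and 14. Cpt2, Crot and Decr1 were lost with each array left out. Their changes in these fits ran from -0.78 to -0.72 for Cpt2, -1.32 to -1.13 for Crot and -0.72 to -0.57 for Decr1. Cpt1a was lost without corn oil mouse 2 (adjusted p = 0.0635) or TCPOBOP mouse 2 (0.0542), Slc25a20 and Hsd17b10 without corn oil mouse 2 or TCPOBOP mouse 1, and Nudt7 without TCPOBOP mouse 2 (0.0702). Acaa1a lost its call without corn oil mouse 2 or TCPOBOP mouse 1, Eci1 without mouse 2 of either group, and Acadl without any but corn oil mouse 1. Of the analysis settings, the mean over a gene's probe sets ended the calls of Hadhb (adjusted p = 0.0975), Cpt2, Acadl and Decr1, and cyclic loess those of Acaa1a, Eci1 and Decr1. None of the 21 called changes turned its direction under these settings or with an array left out. Of 11 further bright probe sets for called genes all 11 were lower with TCPOBOP, by -1.28 to -0.18, the smallest of them the other probe set of Hadhb.

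Other cell markers were read in the same comparison. Of 11 hepatocyte markers 0 were called, but all 11 changes were negative with a median of -0.22, and their summed signal was 59730 to 60400 after TCPOBOP against 66000 to 70010 on corn oil. The part of this in the falls above was not tested. Markers of Kupffer cells (0 of 12 called, median -0.13), endothelial cells (0 of 11, median -0.17) and stellate cells (0 of 8, median 0.04) held no called gene, and of 8 neutrophil markers Mpo was called (0.52, limma adjusted p = 0.0264). Of the adipocyte markers, Adipoq and Lep were never above the brightness limit, while Fabp4 was above it on 18 arrays and Pparg on 24. Of the bile duct markers, Krt7, Epcam and Cftr were never above it, while Krt19 was above it on 23 arrays and Sox9 on 24.

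In knockout mice TCPOBOP moved 0 of the 31 genes past the threshold (0.0764% of all genes), and 27 changes were positive, with a median of 0.13. At an unadjusted p under 0.05, 4 of the 31 were higher and 0 lower (11.4% of all genes in either direction). Cpt1a was at 10.10 and 10.31 on corn oil and at 10.29 and 10.55 after TCPOBOP, a change of 0.22 with a 95% interval of -0.25 to 0.68. Acaa2 was at 10.91 and 11.06 and then at 11.22 and 11.23 (change 0.24, 95% interval 0.01 to 0.47). Both TCPOBOP mice lay below both corn oil mice for 0 of the 31 genes (27.1% of all genes). Decr2 had the largest change, 0.55 (SE 0.23, limma adjusted p = 0.398).

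In human CAR mice TCPOBOP again moved 0 of 31 genes (0% of all genes), with a median of 0.06 and 0 of the 31 at an unadjusted p under 0.05 in either direction (6.65% of all genes). Cpt1a was at 10.26 and 9.95 on corn oil and at 10.43 and 10.18 after TCPOBOP, and the groups overlapped (change 0.20, 95% interval -0.26 to 0.67). Nudt7 was at 10.68 and 10.76 and then at 11.09 and 10.98 (change 0.31, 95% interval -0.38 to 1.00).

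**Figure D3:**
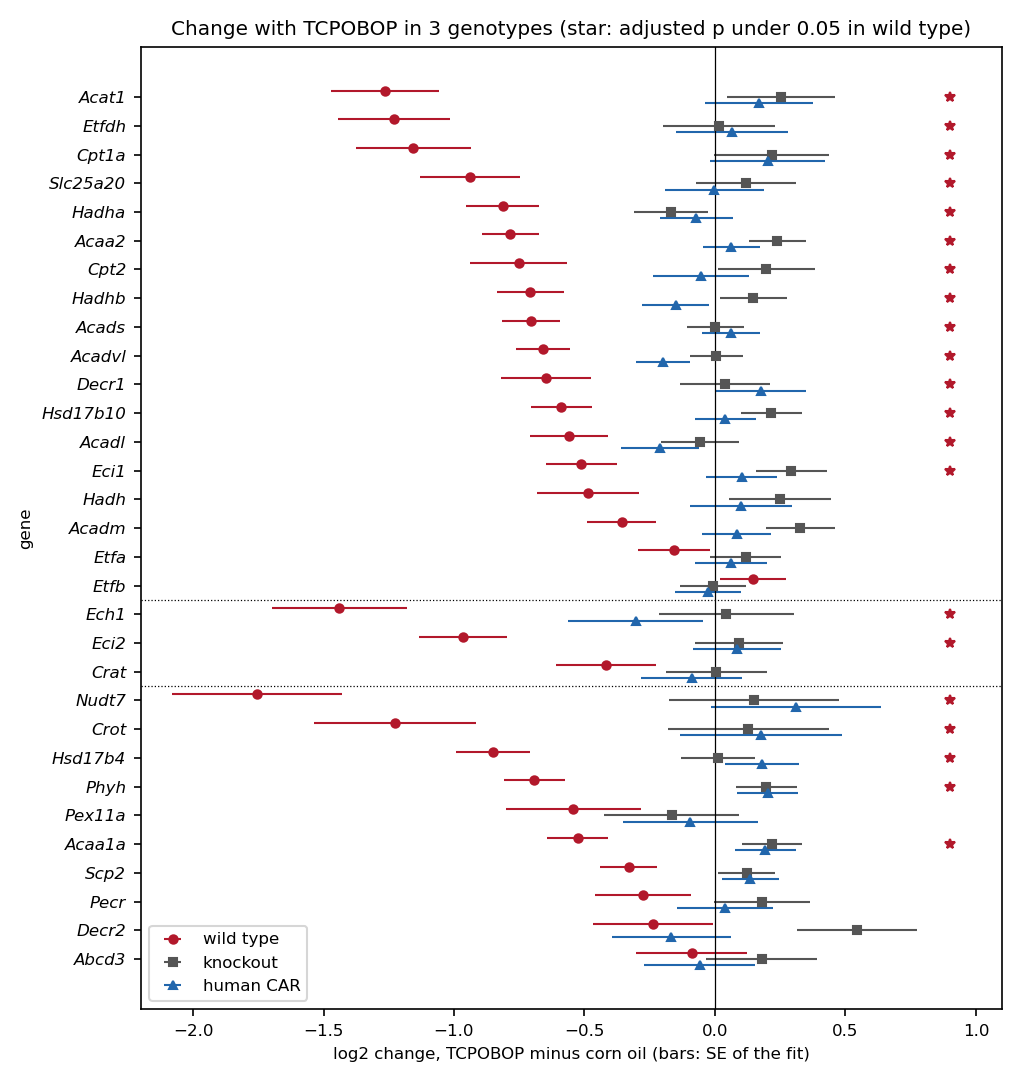
Log2 change from corn oil to TCPOBOP (x axis) for 31 genes (y axis) in wild-type (circles), knockout (squares) and human CAR mice (triangles), with bars of 1 SE of the fit and a star for genes called in wild type. Wild-type changes run from -1.75 to 0.15, and those of the other genotypes lie around 0, between -0.30 and 0.55.

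The difference of the TCPOBOP effect between genotypes was tested directly, as the change in wild type minus the change in the other genotype. Both differences use the same wild-type arrays. Against knockout 15 of 31 genes had a more negative change in wild type and 0 a more positive one, where 0.665% of all genes were more negative and 1.29% more positive. These 15 were 9 of 18 mitochondrial genes, 4 of 10 peroxisomal genes, Ech1 and Eci2. At an unadjusted p under 0.05, 25 were more negative (11.9% of all genes in either direction). Against human CAR mice 10 of 31 genes passed, all more negative in wild type, where 0.644% of all genes were more negative and 1.22% more positive, and 23 passed at an unadjusted p under 0.05 (11.4% of all genes). These 10 were Acaa1a, Acaa2, Acads, Acat1, Cpt1a, Eci2, Etfdh, Hsd17b4, Nudt7 and Phyh, and each of them was also among the 15, beside Acadvl, Ech1, Eci1, Hadhb and Hsd17b10.

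For Nudt7 the knockout mice were at 10.59 and 10.31 on corn oil and at 10.56 and 10.64 on TCPOBOP. Its difference was -1.90 against knockout (SE 0.46, limma adjusted p = 0.0426) and -2.07 against human CAR (SE 0.46, adjusted p = 0.0263), the largest of both sets. Acat1 was at 9.45 and 9.78 and then 9.69 and 10.05 in knockout, and at 9.69 and 9.58 and then 9.63 and 9.98 in human CAR mice. Its differences were -1.52 (SE 0.29, adjusted p = 0.00891) and -1.43 (SE 0.29, adjusted p = 0.0148). Neither genotype without mouse CAR had an Acat1 value after TCPOBOP near the wild-type 8.51 and 8.46. Cpt1a, with its values above, differed by -1.38 (SE 0.31, adjusted p = 0.0274) and -1.36 (SE 0.31, adjusted p = 0.032).

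Etfdh was at 8.31 and 8.67 in knockout on corn oil and at 8.55 and 8.45 on TCPOBOP, and in human CAR mice at 8.34 and 8.01 and then 8.19 and 8.29. Its differences were -1.25 (limma adjusted p = 0.0444) and -1.30 (adjusted p = 0.0365). These Etfdh values overlapped between corn oil and TCPOBOP in both genotypes. Eci2 was at 9.30 and 9.53 and then 9.54 and 9.48 in knockout, and at 8.91 and 9.07 and then 8.93 and 9.21 in human CAR mice, with differences of -1.06 (adjusted p = 0.0274) and -1.05 (adjusted p = 0.0314). Ech1 was at 9.64 and 9.99 and then 9.98 and 9.74 in knockout, a difference of -1.48 (adjusted p = 0.0465). In human CAR mice Ech1 was at 9.57 and 9.91 and then 9.07 and 9.81, so 1 of the mice on TCPOBOP was low, and its difference of -1.14 did not pass (adjusted p = 0.149).

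Acaa2, with knockout values given above, was at 11.09 and 11.13 and then 11.13 and 11.21 in human CAR mice. Its differences of -1.02 (SE 0.15, limma adjusted p = 0.00127) and -0.85 (SE 0.15, adjusted p = 0.00758) had the smallest adjusted p of either set, and the call against knockout was the 1 of 15 that held whichever of the 8 arrays was left out. Phyh was at 11.15 and 11.32 and then 11.46 and 11.41 in knockout, and at 11.12 and 11.50 and then 11.62 and 11.40 in human CAR mice. Both Phyh differences were -0.89 (adjusted p = 0.00714 and 0.0079). Hsd17b4 was at 10.01 and 10.30 and then 10.15 and 10.19 in knockout, and at 9.87 and 10.05 and then 10.11 and 10.16 in human CAR mice, with differences of -0.86 (adjusted p = 0.0323) and -1.03 (adjusted p = 0.011). For Phyh and Hsd17b4 the values in these genotypes were all above those of the wild-type TCPOBOP mice.

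Acads was at 8.72 and 8.63 and then 8.67 and 8.69 in knockout, and at 8.64 and 8.57 and then 8.66 and 8.67 in human CAR mice, so the 8 arrays spanned very little. Its differences were -0.71 (limma adjusted p = 0.0228) and -0.77 (adjusted p = 0.0148). Acaa1a was at 8.36 and 8.44 and then 8.55 and 8.69 in knockout, and at 8.40 and 8.53 and then 8.61 and 8.71 in human CAR mice, higher after TCPOBOP in both. Its differences were -0.75 (adjusted p = 0.0221) and -0.72 (adjusted p = 0.0314).

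The other 4 genes passed against knockout alone. Hadhb was at 9.87 and 9.99 on corn oil and at 10.13 and 10.03 on TCPOBOP in knockout mice, with a difference of -0.85 (limma adjusted p = 0.018), and Hsd17b10 was at 8.87 and 9.06 and then 9.07 and 9.29, with a difference of -0.81 (adjusted p = 0.0134). Eci1 was at 8.49 and 8.70 and then 8.93 and 8.85 (difference -0.81, adjusted p = 0.0379). Acadvl was at 9.98 and 9.95 and then 9.90 and 10.05 (difference -0.66, adjusted p = 0.0215). Hadha, at 9.25 and 9.52 and then 9.26 and 9.16, missed the threshold, with a difference of -0.65 (adjusted p = 0.129). Against human CAR mice these genes had differences of -0.56 for Hadhb, -0.63 for Hsd17b10, -0.61 for Eci1, -0.46 for Acadvl and -0.74 for Hadha, and adjusted p from 0.0636 to 0.158. Whether a gene differs more from one genotype than from the other was not tested.

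Counts of these differences moved with 1 array left out, a fit that has 1 mouse in a group. They are given without their share of all genes. Against knockout the count was 1 without knockout corn oil mouse 1, 2 without wild-type corn oil mouse 2, 3 without knockout TCPOBOP mouse 2, 5 without wild-type TCPOBOP mouse 2, 7 without knockout TCPOBOP mouse 1, 9 without knockout corn oil mouse 2 or wild-type TCPOBOP mouse 1, and 12 without wild-type corn oil mouse 1. Against human CAR it was 2 without mouse 2 of either wild-type group, 3 or 4 without human CAR TCPOBOP mouse 2 or 1, 4 or 6 without human CAR corn oil mouse 2 or 1, 6 without wild-type TCPOBOP mouse 1 and 8 without wild-type corn oil mouse 1. Kupffer cell markers also differed between these genotypes: all 12 had a positive difference against knockout (median 0.76), and Marco was called (1.64, limma adjusted p = 0.016). Their summed signal was 3762 to 4473 in knockout mice on corn oil and 1754 to 2725 on TCPOBOP, against 3003 to 4059 and 2842 to 3477 in wild type. Hepatocyte markers (11 genes) had a summed signal of 66000 to 70010 on corn oil and 59730 to 60400 on TCPOBOP in wild type. In knockout mice it was 68390 to 70420 and then 70180 to 74000, and in human CAR mice 72240 to 73050 and then 72730 to 74590. The part of either marker list in the oxidation genes was not tested.

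**Figure D4:**
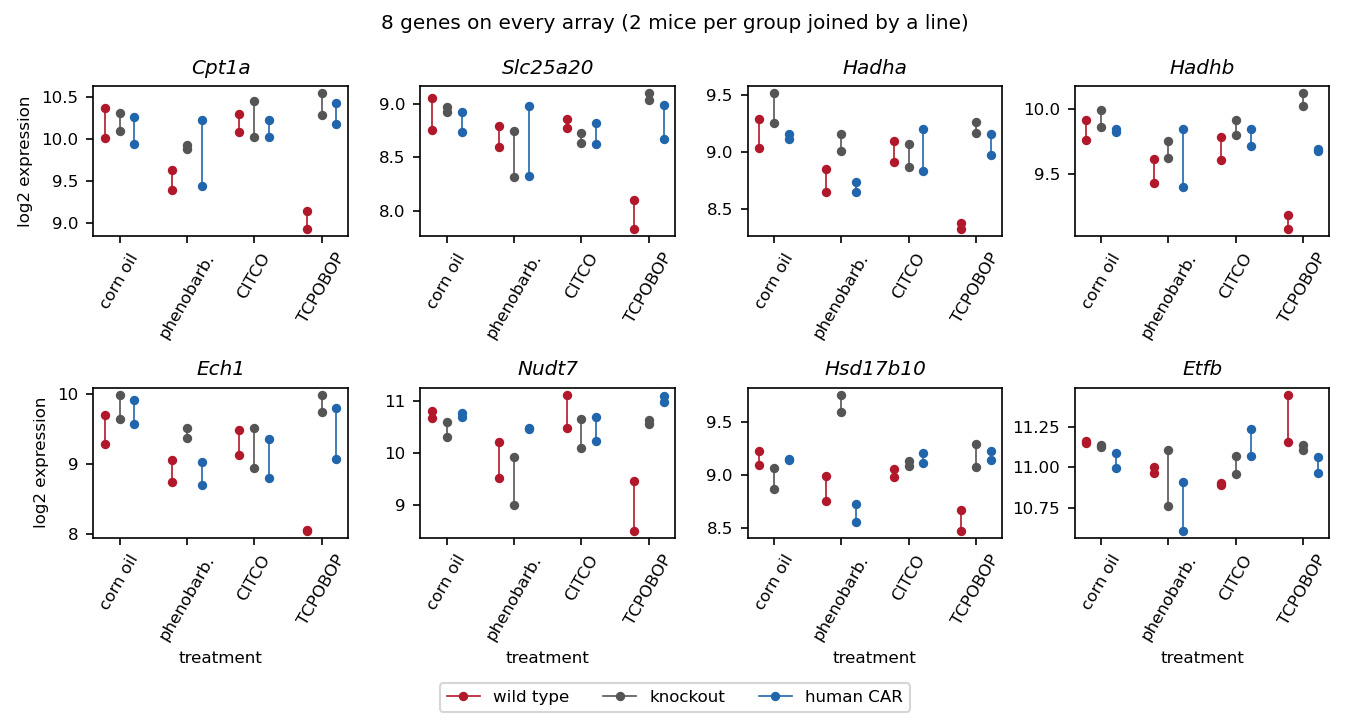
Log2 expression of 8 genes (panels) by treatment (x axis) in wild-type, knockout and human CAR mice, with 2 mice per group joined by a line. In the Cpt1a, Slc25a20, Hadha, Hadhb and Ech1 panels the wild-type TCPOBOP mice are the lowest of all, Hsd17b10 also stands high in knockout mice on phenobarbital, and Etfb is high in 1 wild-type TCPOBOP mouse.

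Phenobarbital moved fewer of the genes in wild-type mice. 1 of 31 fell and 0 rose, where 0.578% of all genes fell and 0.895% rose. The 1 gene was Phyh, at 10.91 and 10.82 against 11.42 and 11.37 on corn oil (change -0.53, SE 0.12, limma adjusted p = 0.0301), and its call was lost with each of the 4 arrays left out, with adjusted p from 0.136 to 0.266. Changes were negative for 27 of 31 genes with a median of -0.27, and 15 genes were lower at an unadjusted p under 0.05 (13.6% of all genes in either direction). Hsd17b4 was at 9.64 on both phenobarbital arrays (change -0.56, adjusted p = 0.0666), below both corn oil arrays, and Cpt1a was at 9.64 and 9.39 (change -0.68, adjusted p = 0.167). Acadm was at 9.77 and 9.79, the level of the lower corn oil mouse. Both phenobarbital arrays lay below both corn oil arrays for 19 of the 31 genes, as for 27.2% of all genes. All 12 Kupffer cell markers had negative changes in this comparison (0 called, median -0.48), with a summed signal of 2271 to 2530 against 3003 to 4059 on corn oil, and their part was not tested. The count of called genes rose to 5 with array weights or with wild-type arrays alone in the fit. Its share of all genes under those settings is not given.

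TCPOBOP was also compared directly with phenobarbital in wild-type mice, a comparison that needs no corn oil array. The doses, the number of active injections and the time from the last active injection to harvest differed. 0 of 31 genes passed, where 1.28% of all genes did. Changes were negative for 29 of 31 with a median of -0.39, and 20 were lower and 1 higher at an unadjusted p under 0.05 (10.8% of all genes). Cpt2 came closest: it was at 8.84 and 8.65 on phenobarbital, on either side of the corn oil mice, and at 8.02 and 7.96 on TCPOBOP (change -0.75, SE 0.18, limma adjusted p = 0.0584). Slc25a20 was at 8.79 and 8.60 on phenobarbital and changed by -0.73 (adjusted p = 0.0813). Both TCPOBOP mice lay below both phenobarbital mice for 27 of 31 genes, as for 21.9% of all genes. Of 12 Kupffer cell markers 12 had positive changes (0 called, median 0.39, summed signal 2842 to 3477 against 2271 to 2530), and 9 of 11 hepatocyte markers had negative ones (0 called, 59730 to 60400 against 65200 to 66040), and their part was not tested. Under other settings the count ran up to 8 (array weights), 7 (wild-type arrays alone) and 4 (without the 2 arrays of low correlation). These counts are given without their share of all genes.

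**Figure D5:**
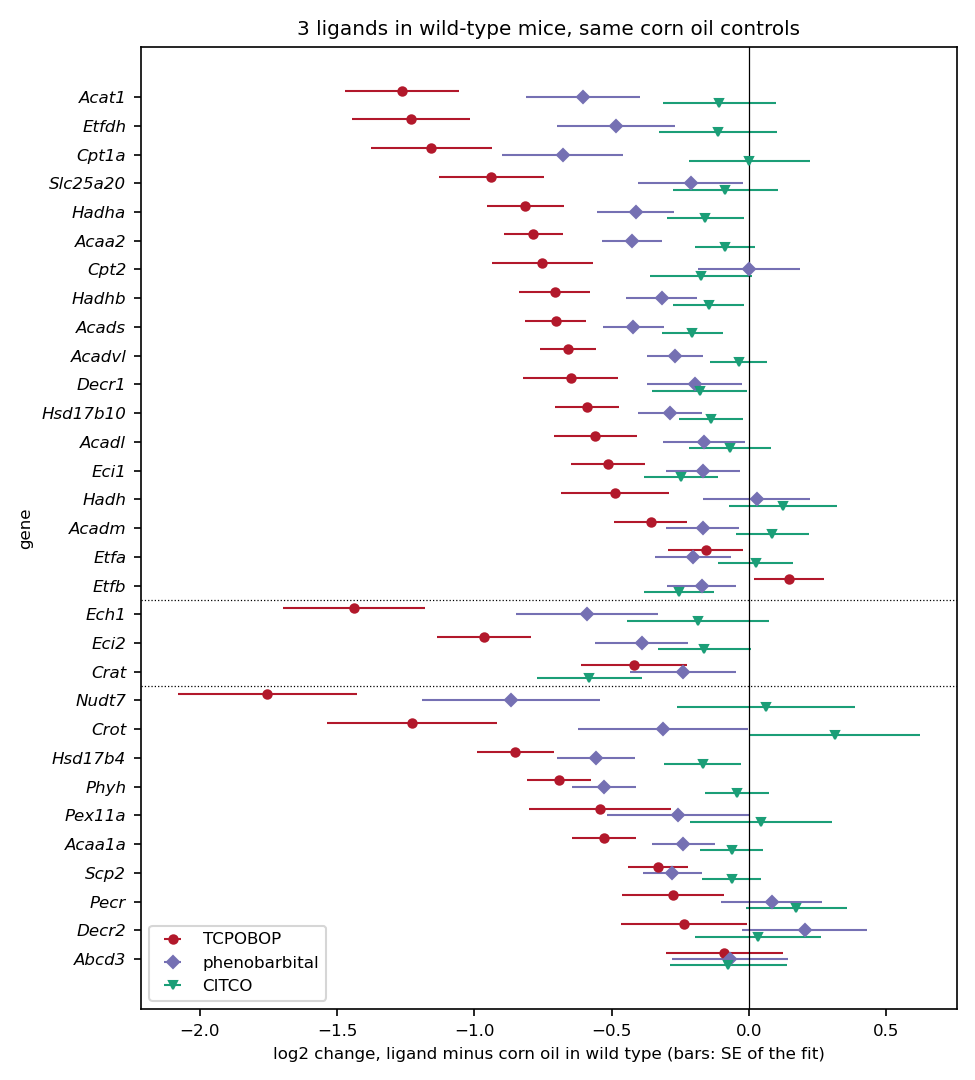
Log2 change from the same 2 corn oil mice (x axis) for 31 genes (y axis) after TCPOBOP (circles), phenobarbital (diamonds) and CITCO (inverted triangles) in wild-type mice, with bars of 1 SE of the fit. TCPOBOP changes have a median of -0.66, phenobarbital changes one of -0.27 and CITCO changes one of -0.09, and all 3 share their controls.

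In knockout mice 1 of 31 genes rose with phenobarbital and 0 fell, where 0.185% of all genes rose and 0.545% fell. At an unadjusted p under 0.05, 1 was higher and 7 lower (21.3% of all genes). Hsd17b10 was at 9.60 and 9.76 on phenobarbital and at 8.87 and 9.06 on corn oil, and the 2 phenobarbital mice had the highest values of all 24 (change 0.72, SE 0.12, limma adjusted p = 0.0144). Its other probe set was also higher, by 0.57. Without the 2 arrays of low correlation the change was 0.64 (adjusted p = 0.105), and the call was also lost without phenobarbital mouse 2 or either corn oil mouse. Most other genes had negative changes (27 of 31, median -0.17). Crot was at 9.25 and 8.49 against 9.89 and 10.06, and Nudt7 at 9.93 and 9.0 against 10.59 and 10.31. These 2 changes of -1.11 and -0.99 did not pass (adjusted p = 0.0867 and 0.12), and the lower value of each came from mouse 2. Of 12 Kupffer cell markers 5 fell in this comparison (median -1.24), and their part in these values was not tested.

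Hsd17b10 was also the 1 gene of 31 whose phenobarbital effect differed between wild type and knockout (0.0327% of all genes were more negative in wild type and 0.12% more positive), and 4 passed at an unadjusted p under 0.05, all more negative (9.14% of all genes). In wild-type mice it was at 8.76 and 8.99 on phenobarbital against 9.10 and 9.22 on corn oil. The difference was -1.005 (SE 0.16, limma adjusted p = 0.0141), and it was -0.92 (adjusted p = 0.062) without the 2 arrays of low correlation. It was also lost without wild-type phenobarbital mouse 1, wild-type corn oil mouse 2, knockout phenobarbital mouse 2 or knockout corn oil mouse 1. Between wild type and human CAR mice 0 of 31 phenobarbital effects differed (0.164% of all genes), with 0 at an unadjusted p under 0.05 (10.4% of all genes).

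In human CAR mice 1 of 31 genes fell with phenobarbital and 0 rose, where 0.556% of all genes fell and 0.109% rose, and 10 were lower at an unadjusted p under 0.05 (21.2% of all genes). Acaa2 was at 10.37 and 10.65 on phenobarbital and at 11.09 and 11.13 on corn oil (change -0.60, SE 0.11, limma adjusted p = 0.0261), with both mice below both controls. Its 2 other probe sets were lower by -0.61 and -0.65. Without phenobarbital mouse 1, which has the lowest correlation of all arrays, the change was -0.46 (adjusted p = 0.352), and the call was also lost without either corn oil mouse. Without phenobarbital mouse 2 instead, the Acaa2 change was -0.74, with mouse 1 alone as the phenobarbital group. The 2 mice stood apart: Cpt1a was at 9.44 and 10.23, and Crot at 8.86 and 9.86. The mitochondrial class stood at -0.34 in mouse 1 and -0.01 in mouse 2. Mouse 1 also had the highest summed signal of 8 neutrophil markers (1515, against 427.9 in mouse 2 and at most 557.4 on any other array), of 2 adipocyte markers (148.6) and of 2 bile duct markers (126.8), and the lowest of 11 endothelial markers (1017, against 1362 in mouse 2). The part of these markers in the Acaa2 call and in the split between the mice was not tested. Hsd17b10 was low in both, at 8.55 and 8.72 against 9.16 and 9.14, but its change of -0.51 did not pass (adjusted p = 0.0534).

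CITCO moved 0 of 31 genes in wild-type mice (0.0327% of all genes), 0 in knockout mice (0.0327%) and 0 in human CAR mice (0.0873%), although Cyp2b10 rose with CITCO in wild-type and human CAR mice (values above). At an unadjusted p under 0.05 the counts of lower and higher genes were 1 and 0 in wild type (7.28% of all genes in either direction), 7 and 0 in knockout (9.4%), and 2 and 1 in human CAR mice (7.49%). In human CAR mice Cpt1a was at 10.23 and 10.02 on CITCO, within the spread of the corn oil mice. Ech1 was at 9.35 and 8.80 on CITCO against 9.57 and 9.91, its 2 mice apart from each other, and the change of -0.66 had a limma adjusted p of 0.564. In knockout mice, both CITCO mice lay below both corn oil mice for 18 of 31 genes, as for 26.9% of all genes, with a median change of -0.19. All 12 Kupffer cell markers had negative changes there (0 called, median -0.76), with a summed signal of 2398 to 2575 against 3762 to 4473 on corn oil, and their part was not tested. Crot was lowest there, at 9.22 and 9.09 against 9.89 and 10.06 (change -0.82, adjusted p = 0.416). In wild type Crat had the largest change, from 6.77 and 7.21 to 6.48 and 6.34 (-0.58, adjusted p = 0.572). The effect of CITCO in human CAR mice differed from that in knockout for 0 of 31 genes (0.0327% of all genes) and from that in wild type for 0 (0%), and at an unadjusted p under 0.05 there were 3 and 1 with a higher change and 0 with a lower one (6.79% and 9.41% of all genes).

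On corn oil the genotypes did not differ in any of the 31 genes past the threshold, for knockout against wild type (0.229% of all genes), human CAR against wild type (0.0545%) and human CAR against knockout (0.12%). Median changes were 0.00, -0.07 and -0.08, and 2, 0 and 1 genes were lower at an unadjusted p under 0.05 by limma, with 0 higher (6.57%, 7.73% and 6.46% of all genes). Pex11a had the largest value, 0.53 for knockout against wild type, and it rested on a single knockout mouse at 9.07 beside one at 8.01. For Cpt1a the corn oil values of all 3 genotypes lay between 9.95 and 10.37.

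Other genes of fatty acid metabolism were read from lists that do not hold the members, except where named. Of 34 tested further oxidation genes 4 fell with TCPOBOP in wild type and 0 rose, with a median of -0.36. They were Slc27a2, a very long-chain acyl-CoA synthetase (-0.89, limma adjusted p = 0.000446), Acox3, the oxidase of branched chains (-0.69, adjusted p = 0.00304), Acaa1b, the second peroxisomal thiolase (-1.05, adjusted p = 0.0137), and Acad11, an acyl-CoA dehydrogenase (-0.66, adjusted p = 0.0424). Acaa1a and Acaa1b are near-identical copies, so probe sets of one may also read the other. Ehhadh, the other bifunctional enzyme of peroxisomes, changed by -0.39 (adjusted p = 0.429) and did not pass. Of 4 ketone body genes 1 fell, which was Acat1.

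Regulators of the pathway included 0 called genes of 17, with a median of -0.40. Ppara, which encodes the nuclear receptor named above, was at 8.67 and 8.79 on wild-type corn oil arrays and at 7.46 and 7.43 after TCPOBOP. Its groups were far apart, but its spread in other groups was wide, and the change of -1.28 (SE 0.39, limma adjusted p = 0.0616) did not pass. In knockout mice Ppara was at 8.29 and 7.69 and then 8.83 and 9.02, and the difference of effects was called (-2.22, SE 0.55, adjusted p = 0.0469). With phenobarbital in wild type 2 of the 17 fell: Rxra, the partner of PPARα and CAR (-0.86, adjusted p = 0.00583), and Lpin1, a coactivator and phosphatase (-2.61, adjusted p = 0.0414).

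Of 14 genes listed under peroxisome biogenesis, a list that also held Cat, Pxmp2, Pxmp4 and Abcd4, 1 fell with TCPOBOP in wild type. It was Pex19, a chaperone of membrane proteins (-0.67, limma adjusted p = 0.0199), and the median of the list was -0.20. The citric acid cycle, which burns the acetyl-CoA, held 3 falling genes and 1 rising gene of 20, with a median of -0.17. These were Ogdh (-0.70, adjusted p = 0.00109), Idh3b (-0.54, adjusted p = 0.00443), Sdha (-0.47, adjusted p = 0.011) and Mdh2 (0.39, adjusted p = 0.0446). The members' share of falling genes, 21 of 31, stands beside these counts as a description, since the lists were not tested against each other.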

How the data were processed

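Liver RNA of 24 mice was hybridised to 24 single-colour Affymetrix arrays. The authors deposited log2 values per probe set, made with RMA in R 2.15.0 per the submitters' processing notes, which corrects background, quantile-normalizes the arrays and summarises probes, so that shifts of all genes together are removed. Deposited values ran from 2.03 to 14.1, with array medians of 5.41 to 5.51. Of 22690 probe sets 64 were controls, 20380 had 1 gene symbol in the platform annotation, 691 had several and 1555 were not listed, and the last 2 kinds were left out.

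A gene was represented by its probe set with the highest mean over 24 arrays, and was tested if at least 2 arrays had it above their own 40th percentile (4.93 to 5.08). Group means of 12 groups were fitted with limma 3.58.1 (R 4.3.3), with 12 residual degrees of freedom before moderation, 19 comparisons and Benjamini-Hochberg adjustment within each over 9167 genes. The script was tested on simulated data. Groups follow genotype and ligand in the labels. All members are accounted for. Array values are given for called members and for Cpt1a and Acadm, and of other lists up to 5 genes called with TCPOBOP in wild type are named, plus Ehhadh and Ppara. Further genes and values, among them members close to the threshold, the called Kupffer, neutrophil and phenobarbital genes, Nr1i3 and Cyp2b10, were named after their values were seen. The members and lists were chosen with earlier results of these data known.

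No 2 arrays were copies: at most 0.0485% of values were equal in any of 276 pairs. Deviations of same-numbered mice were correlated between groups at -0.45 to 0.42 (66 pairs of groups, median 0.03, 17 above 0.1). Some pairs of groups thus deviated together. Without batch labels this cannot tell whether replicate numbers mark a pairing, and the main fit did not use them. Alternatives were cyclic loess, no or a stricter brightness filter, the mean of a gene's probe sets, a variance trend with robust prior, array weights, a replicate block, leaving out the 2 arrays of low correlation, only arrays of the genotypes compared, and leaving out each array in turn. The sources used here give no litter, hybridisation day or age. Promoters are RefSeq's, with no genome used.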

Additional observations from a re-analysis of the deposited data

Results flagged for a closer look

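Effects under the same ligand differed between genotypes, by limma's test of the difference of effects (adjusted p under 0.05 over 9167 genes), for 26 values. All are log2 changes in wild type minus those in the other genotype, with 2 mice per group, and the 2 sets for TCPOBOP share the wild-type arrays.

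For TCPOBOP against human CAR mice the differences were -2.07 for Nudt7, -1.43 for Acat1, -1.36 for Cpt1a, -1.30 for Etfdh, -1.05 for Eci2, -1.03 for Hsd17b4, -0.89 for Phyh, -0.85 for Acaa2, -0.77 for Acads and -0.72 for Acaa1a.

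For TCPOBOP against knockout mice the differences were -1.90 for Nudt7, -1.52 for Acat1, -1.48 for Ech1, -1.38 for Cpt1a, -1.25 for Etfdh, -1.06 for Eci2, -1.02 for Acaa2, -0.89 for Phyh, -0.86 for Hsd17b4, -0.85 for Hadhb, -0.81 for both Hsd17b10 and Eci1, -0.75 for Acaa1a, -0.71 for Acads and -0.66 for Acadvl. In each set the Acaa2 call held whichever of the 8 arrays was left out, and it was the 1 call of its set to do so.

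For phenobarbital against knockout mice the difference was -1.005 for Hsd17b10, which lost its call without the 2 arrays of low correlation.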

How the results depend on the processing

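Leaving out 1 array gave 12 to 18 falling genes for TCPOBOP in wild type, 1 to 12 for its effect against knockout and 2 to 8 against human CAR. For phenobarbital it gave 0 to 0 in wild type, 0 to 3 in knockout, 0 to 9 in human CAR mice and 0 to 1 for the effect in wild type against knockout. Comparisons with 0 calls kept 0 under each array left out. Each fit with 1 array left out has 1 mouse in a group, and these counts are given without their share of all genes. The median difference of mitochondrial and peroxisomal genes ran from -0.30 to -0.02. None of the called changes turned its direction under any setting or with any array left out.

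The replicate block gave 21 falling genes for TCPOBOP in wild type, 14 against knockout and 11 against human CAR, 2 for phenobarbital in human CAR mice and 2 for TCPOBOP against phenobarbital; it moved no other count by over 1.5 times. For phenobarbital in wild type, cyclic loess gave 3 genes, the mean of probe sets 2, array weights 5, leaving out the 2 arrays of low correlation 3 and wild-type arrays alone 5. Array weights, leaving out those 2 arrays and the genotype's arrays alone each gave 0 for phenobarbital in knockout and 0 in human CAR mice, where the stricter brightness filter and the mean of probe sets gave 2. Array weights gave 1 for CITCO in knockout. For TCPOBOP against phenobarbital the mean of probe sets gave 1, array weights 8, leaving out the 2 arrays 4 and wild-type arrays alone 7. The effect of TCPOBOP against human CAR gave 6 with arrays of those genotypes alone, and the phenobarbital effect against knockout gave 0 without the 2 arrays. These counts are also given without their share of all genes, and the cause of the moves was not tested. Signal over background did not limit the members, which were above the brightness limit on all 24 arrays.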
